A study of Mus musculus with 12 samples.

Results

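The endothelial cell genes described here are 10 genes that mark the cells lining blood vessels: Pecam1, Cdh5, Vwf, Esam, Flt1, Kdr, Tek, Tie1, Emcn and Cldn5. They were found as the rows of the deposited array table whose single gene symbol in the platform annotation was one of these names. Each of the 10 had 1 transcript cluster (the probes that an array of this type summarises into 1 value per gene), out of 18820 genes with such a cluster. RNA came from heart and cerebrum of mice given phosphatidylserine (PS), a membrane phospholipid, or medium-chain triglycerides (MCT), the vehicle. The question of the series is what PS does to transcription in a mouse model of familial dysautonomia (FD), a heritable neuropathy of the sensory and autonomic nerves. There were 4 groups of 3 arrays each: heart of PS mice, heart of MCT mice, cerebrum of PS mice and cerebrum of MCT mice. PS was gavaged at 200 mg/kg in 100 µl, and MCT in 100 µl, every other day for 3 months, starting when the mice were 4 months old. All 12 arrays carry the strain label C57BL/6J and the genotype label humanized knock-in IKBKAP FDloxP/+, so the MCT mice carry the allele too. The labels conflict: the design text counts 6 FD mice, whereas the growth protocol counts 3 FD and 3 wild-type mice, and the dose is given per kg in one place and per day in another. Nothing in the labels says whether a heart and a cerebrum of equal number came from 1 mouse, and for PS number 2 they did not: the heart had the female level of Xist (9.13), with Eif2s3y, a Y-linked gene, at 3.49, and the cerebrum the male level (3.32), with Eif2s3y at 7.25.

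Endothelial cells hold each other through VE-cadherin, made from Cdh5, and through PECAM-1, ESAM and claudin-5. They depend on vascular endothelial growth factors (VEGFs), which act on the receptor kinases made from Flt1 and Kdr, and on angiopoietins, which act on the receptor kinase TIE2, made from Tek, with TIE1 as its partner. In the brain the same cells form the blood-brain barrier, in which claudin-5 is the main tight junction protein, whereas the capillaries of the heart have no such barrier.

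Values are log2 intensities as deposited, so a difference of 1 is a doubling, and an intensity cannot be compared between genes. Array medians were 4.89 to 5. Across transcripts, which are not independent replicates, arrays of 1 group correlated at 0.979 to 0.995, PS with MCT arrays of 1 tissue at 0.973 to 0.992, and heart with cerebrum at 0.825 to 0.852. The tissue labels matched their markers: Myl2, the ventricular myosin light chain gene, was at 11.84 to 12.05 on the hearts and 3.78 to 4.15 on the cerebra, and Snap25, a synaptic vesicle fusion gene, at 3.97 to 5.08 on the hearts and 12.30 to 12.44 on the cerebra. All 10 endothelial genes passed the filter on dim transcripts in each of the 5 comparisons, also in cerebrum alone, and the filter kept 12731 to 12736 transcripts. Adjusted p-values are limma's, with Benjamini-Hochberg adjustment over those transcripts and a threshold of 0.05, and intervals are 95% intervals of a single gene, not adjusted. The arrays are labelled as biological replicates, and 3 a group limits the precision of every value.

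Promoter sequence was at hand for 6 of the 10 genes (Emcn, Tek, Tie1, Kdr, Flt1 and Cldn5) in RefSeq's annotation of GRCm38.p6, as 250 bases before to 50 after the transcription start. The 3 shown belong to the gene with the widest difference between heart and cerebrum (Kdr), the called gene with the narrowest (Flt1) and the gene with none past the threshold (Cldn5). Capitals mark the ETS core, GGAA or its reverse complement TTCC, the sequence bound by ETS factors such as ERG and FLI1, which endothelial cells use widely. The windows are chr5:75978406-75978705 on the minus strand for Kdr, chr5:147725962-147726261 on the minus strand for Flt1 and chr16:18776597-18776896 on the plus strand for Cldn5.
Kdr: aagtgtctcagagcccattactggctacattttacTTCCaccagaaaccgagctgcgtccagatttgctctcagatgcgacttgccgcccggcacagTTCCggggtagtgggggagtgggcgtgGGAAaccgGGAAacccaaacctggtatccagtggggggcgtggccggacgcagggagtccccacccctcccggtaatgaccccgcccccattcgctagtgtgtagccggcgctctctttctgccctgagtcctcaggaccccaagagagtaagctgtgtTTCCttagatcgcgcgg
Flt1: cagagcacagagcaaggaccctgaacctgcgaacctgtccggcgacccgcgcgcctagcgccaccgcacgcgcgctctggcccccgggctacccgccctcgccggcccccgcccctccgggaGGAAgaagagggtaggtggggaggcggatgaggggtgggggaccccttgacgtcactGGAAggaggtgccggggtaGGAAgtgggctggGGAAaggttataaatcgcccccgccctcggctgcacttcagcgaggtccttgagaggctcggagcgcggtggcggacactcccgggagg
Cldn5: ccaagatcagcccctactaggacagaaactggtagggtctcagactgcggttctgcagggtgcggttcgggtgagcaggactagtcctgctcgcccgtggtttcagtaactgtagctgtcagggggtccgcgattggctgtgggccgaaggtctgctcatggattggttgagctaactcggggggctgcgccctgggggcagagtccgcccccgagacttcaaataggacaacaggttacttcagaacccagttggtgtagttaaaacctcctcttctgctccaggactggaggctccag
The Kdr window holds 5 ETS cores, the Flt1 window 4 and the Cldn5 window 0. Among the promoters not printed, Tie1 holds 9, Emcn 6 and Tek 2. An ETS core on either strand stands in 96% of 32851 RefSeq promoter windows of this length, with a median of 3 a window, so its presence sets no gene apart. Of the other motifs searched on both strands, GATAA stands in 25.4% of all windows and in 2 of the 6. GGGCGG, the GC box, stands in 35.7% and in 3 of the 6 (Kdr, Flt1 and Cldn5), TATAAA in 13.6% and in 1 (Flt1), ACAAT in 31% and in 2, and GTAAACA in 3.6% and in 0. The G and C content of the Flt1 window was 70.7%, of Kdr 60.7% and of Cldn5 58.3%, against a median of 52.7% over all windows. These letters were read from a reference genome, and no binding was measured in these mice.

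Heart and cerebrum differed far more in these genes than the treatments did. Of the 10 genes, 9 were higher in heart than in cerebrum in PS mice, where 38.3% of all transcripts tested were called higher, and the same count, 9 of 10, was called in MCT mice, where 35.2% were. The median difference between heart and cerebrum over the 10 genes was 2.45 log2 units in PS mice (all transcripts 0.02) and 2.29 in MCT mice (all transcripts -0.07). Kdr had the widest difference, 12.5-fold higher in heart in PS mice and 9.89-fold in MCT mice. Cldn5 passed in neither. In bulk RNA of a whole tissue, more endothelial cells and more RNA of a gene per endothelial cell cannot be told apart.

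**Figure D1:**
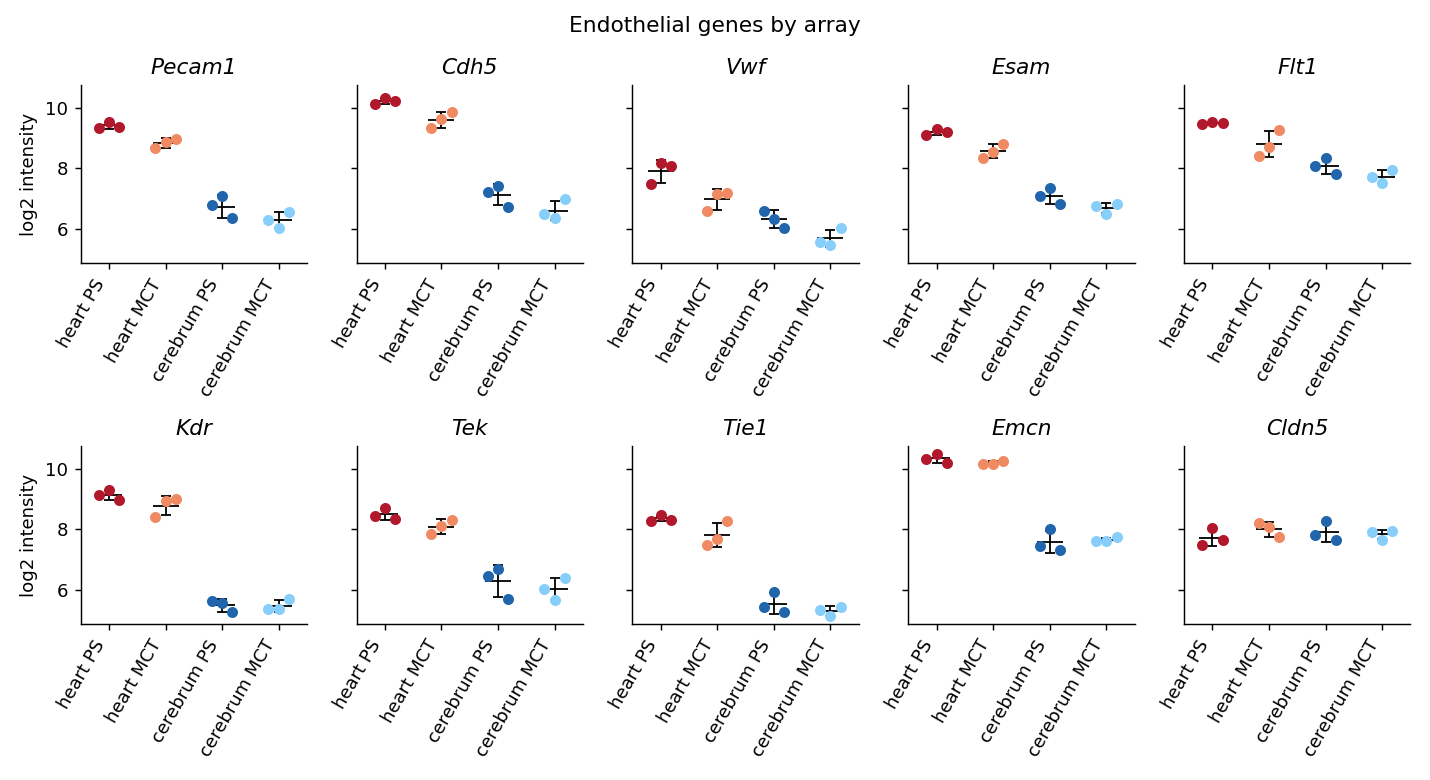
Log2 intensity (vertical axis) of each of the 10 endothelial genes on each of the 12 arrays, 1 panel a gene, with groups in the order heart PS, heart MCT, cerebrum PS and cerebrum MCT. Points are arrays and horizontal bars are group means with their SD as vertical bars (n = 3). Every heart array lies above every cerebrum array for 8 genes. The exceptions are Vwf, by 0.02 between 2 arrays, and Cldn5, whose 12 arrays span 0.78 log2 units, whereas the other genes span 2.01 to 4.03.

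Pecam1 encodes an adhesion molecule shared by nearly all endothelium. In heart it was 9.35, 9.55 and 9.36 in PS mice and 8.67, 8.87 and 8.97 in MCT mice. In cerebrum it was 6.79, 7.08 and 6.35 in PS mice and 6.31, 6.03 and 6.56 in MCT mice. Every PS heart thus lay above every MCT heart, and in cerebrum the treatments overlapped. Heart was 2.68 log2 units above cerebrum in PS mice (interval 2.26 to 3.10, adjusted p = 4.81e-06 in limma) and 2.54 above in MCT mice (2.18 to 2.89, adjusted p = 8.50e-07). PS minus MCT was 0.58 in heart (0.28 to 0.88, adjusted p = 0.119) and 0.44 in cerebrum (-0.03 to 0.91, adjusted p = 0.198), and neither passed.

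Cdh5 encodes VE-cadherin, the adherens junction protein of endothelium. Its heart values were 10.14, 10.32 and 10.24 in PS mice and 9.33, 9.63 and 9.87 in MCT mice. Cerebrum gave 7.22, 7.42 and 6.74 in PS mice and 6.49, 6.36 and 6.98 in MCT mice. The order of the groups was that of Pecam1, with the hearts apart by treatment and the cerebra overlapping. The excess of heart over cerebrum was 3.11 log2 units in PS mice (2.71 to 3.51, adjusted p = 1.60e-06 in limma) and 3.00 in MCT mice (2.55 to 3.45, adjusted p = 1.22e-06). The treatment difference was 0.62 in heart (0.26 to 0.98, adjusted p = 0.123) and 0.52 in cerebrum (0.02 to 1.01, adjusted p = 0.160).

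Esam, a junctional adhesion molecule also made by platelets, was 9.10, 9.30 and 9.20 in PS hearts and 8.35, 8.54 and 8.81 in MCT hearts. In cerebrum, PS mice had 7.09, 7.34 and 6.84 and MCT mice 6.77, 6.50 and 6.81. It was the only one of the 10 genes whose PS and MCT arrays did not overlap in cerebrum, where the lowest PS array was 0.03 above the highest MCT array, and they did not overlap in heart either. Heart minus cerebrum was 2.11 log2 units in PS mice (1.79 to 2.43, adjusted p = 3.98e-06 in limma) and 1.87 in MCT mice (1.53 to 2.22, adjusted p = 4.81e-06). PS minus MCT, 0.63 in heart (0.30 to 0.97, adjusted p = 0.119) and 0.40 in cerebrum (0.06 to 0.73, adjusted p = 0.124), did not pass.

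Cldn5, the tight junction gene of the blood-brain barrier, kept to another pattern. PS hearts had 7.49, 8.03 and 7.63, and MCT hearts had 8.20, 8.07 and 7.73. PS cerebra had 7.80, 8.27 and 7.64, and MCT cerebra had 7.90, 7.65 and 7.93. All 4 groups overlapped. Heart minus cerebrum was -0.19 log2 units in PS mice (-0.65 to 0.28, adjusted p = 0.414 in limma) and 0.17 in MCT mice (-0.17 to 0.52, adjusted p = 0.316). PS minus MCT was -0.28 in heart (-0.71 to 0.14, adjusted p = 0.361), the one negative value of the 10 in that tissue, and 0.08 in cerebrum (-0.31 to 0.47, adjusted p = 0.785). Whether Cldn5 differs from the other 9 genes was not tested.

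Flt1 encodes VEGF receptor 1, which binds VEGF-A, VEGF-B and placental growth factor. Heart gave 9.46, 9.54 and 9.50 in PS mice and 8.42, 8.70 and 9.26 in MCT mice. Cerebrum gave 8.09, 8.36 and 7.82 in PS mice and 7.71, 7.53 and 7.95 in MCT mice. The 3 PS hearts lay within 0.08 of each other, above all MCT hearts, of which the third stood 0.56 above the next. Flt1 had the narrowest excess of heart over cerebrum among the 9 called genes, 1.41 log2 units in PS mice (1.09 to 1.73, adjusted p = 4.24e-05 in limma) and 1.06 in MCT mice (0.57 to 1.55, adjusted p = 0.00176). PS minus MCT was 0.71 in heart (0.24 to 1.18, adjusted p = 0.134) and 0.36 in cerebrum (-0.01 to 0.73, adjusted p = 0.184).

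Kdr encodes VEGF receptor 2, the main signalling receptor for VEGF-A. PS hearts had 9.13, 9.28 and 8.95, against 8.41, 8.92 and 9.00 in MCT hearts. PS cerebra had 5.63, 5.56 and 5.25, against 5.35, 5.36 and 5.70 in MCT cerebra. The treatments overlapped in both tissues, and the lowest MCT heart stood 2.78 above the highest PS cerebrum. Heart exceeded cerebrum by 3.64 in PS mice (3.32 to 3.96, adjusted p = 1.83e-07 in limma) and by 3.31 in MCT mice (2.90 to 3.72, adjusted p = 3.70e-07). For treatment the difference was 0.34 in heart (-0.07 to 0.76, adjusted p = 0.275) and 0.01 in cerebrum (-0.31 to 0.33, adjusted p = 0.970).

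Tek, the angiopoietin receptor gene, had 8.45, 8.70 and 8.33 in PS hearts and 7.83, 8.11 and 8.32 in MCT hearts. It had 6.46, 6.69 and 5.69 in PS cerebra and 6.02, 5.65 and 6.40 in MCT cerebra. The PS and MCT hearts were 0.01 apart at their nearest arrays. Heart stood above cerebrum by 2.21 log2 units in PS mice (1.63 to 2.80, adjusted p = 9.17e-05 in limma) and by 2.06 in MCT mice (1.60 to 2.53, adjusted p = 1.94e-05). PS minus MCT was 0.41 in heart (0.03 to 0.79, adjusted p = 0.191) and 0.26 in cerebrum (-0.40 to 0.91, adjusted p = 0.572).

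Tie1, the gene of the partner receptor, had 8.28, 8.46 and 8.32 in PS hearts and 7.48, 7.68 and 8.27 in MCT hearts. In cerebrum it had 5.42, 5.93 and 5.27 in PS mice and 5.33, 5.13 and 5.44 in MCT mice. As with Tek and Flt1, the third MCT heart came closest to the PS hearts, here within 0.01. The excess of heart was 2.81 log2 units in PS mice (2.41 to 3.21, adjusted p = 2.64e-06 in limma) and 2.51 in MCT mice (2.05 to 2.97, adjusted p = 4.78e-06). PS minus MCT was 0.54 in heart (0.08 to 1.01, adjusted p = 0.172) and 0.24 in cerebrum (-0.17 to 0.65, adjusted p = 0.392).

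Vwf encodes von Willebrand factor, the clotting glycoprotein that endothelial cells store and release and that megakaryocytes also make. Its heart values were 7.47, 8.17 and 8.07 in PS mice and 6.59, 7.16 and 7.20 in MCT mice. Its cerebrum values were 6.61, 6.33 and 6.02 in PS mice and 5.56, 5.48 and 6.02 in MCT mice. Vwf had the largest PS minus MCT difference of the 10 genes in both tissues, 0.92 log2 units or 1.89-fold in heart (0.38 to 1.46, adjusted p = 0.123 in limma) and 0.63 or 1.55-fold in cerebrum (0.20 to 1.07, adjusted p = 0.0813). Neither passed. Heart exceeded cerebrum by 1.58 in PS mice (1.07 to 2.09, adjusted p = 2.98e-04) and by 1.30 in MCT mice (0.83 to 1.76, adjusted p = 4.03e-04), although the lowest MCT heart lay 0.02 below the highest PS cerebrum.

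Emcn encodes endomucin, a surface sialoglycoprotein of veins and capillaries. PS hearts had 10.32, 10.49 and 10.20, against 10.14, 10.15 and 10.25 in MCT hearts. PS cerebra had 7.43, 7.99 and 7.31, against 7.61, 7.60 and 7.73 in MCT cerebra. The treatments overlapped in both tissues, and in cerebrum the PS arrays lay on either side of the MCT values. Heart minus cerebrum was 2.76 log2 units in PS mice (2.33 to 3.19, adjusted p = 4.39e-06 in limma) and 2.53 in MCT mice (2.29 to 2.77, adjusted p = 6.64e-08). The treatment difference was 0.16 in heart (-0.12 to 0.44, adjusted p = 0.443) and -0.07 in cerebrum (-0.47 to 0.33, adjusted p = 0.805).

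**Figure D2:**
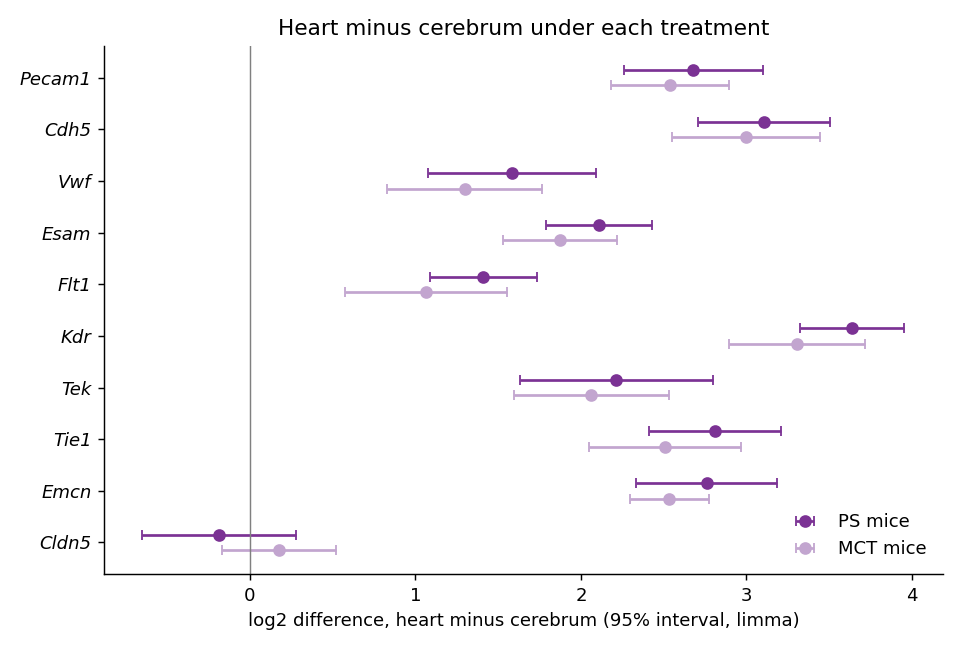
Heart minus cerebrum in log2 units (horizontal axis) for the 10 endothelial genes, in PS mice and in MCT mice. Points are limma estimates and lines are 95% intervals of a single gene. The intervals of 9 genes lie above 0 in both treatments and those of Cldn5 include 0 in both.

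By their means, 8 of the 10 genes stood in the order PS heart, MCT heart, PS cerebrum, MCT cerebrum, high to low. Emcn had its cerebra in the other order, and Cldn5 ran MCT heart, PS cerebrum, MCT cerebrum, PS heart. Neighbours in that order that overlapped were the hearts for Kdr, Emcn and Cldn5, the cerebra for every gene but Esam, and MCT heart with PS cerebrum for Vwf alone among the 8 genes.

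For PS against MCT, the endothelial genes lay above the vehicle in most cases, and none passed the threshold. Judged by Xist, the PS hearts were female and the MCT hearts male, so sex and treatment cannot be told apart in heart. In cerebrum, only the second PS array had the male level of the MCT arrays. The other PS cerebra had the female level and no MCT cerebrum did, so sex largely follows treatment there too. The part of sex in the cerebrum differences was not tested. In heart, 9 of 10 differences were positive (57.7% of all transcripts tested), with a median of 0.56 log2 units against 0.06 over all transcripts. In that comparison 0 of 10 passed in limma, where 0.33% of all transcripts were called. At an unadjusted p under 0.05, 7 of 10 were higher (Pecam1, Cdh5, Vwf, Esam, Flt1, Tek and Tie1), against 13.3% of all transcripts. The same 7 had no overlap between PS and MCT hearts, with PS above, as did 17.2% of all transcripts. In cerebrum, 9 of 10 differences were positive (45% of all transcripts), although that of Kdr turned negative under quantile normalization and with arrays centred on their medians, and the median was 0.31 against -0.03 over all transcripts. Again 0 of 10 passed, where 5.76% of all transcripts were called. Cdh5, Vwf and Esam had an unadjusted p under 0.05, and 11.3% of all transcripts were higher by that rule. Esam alone did not overlap, as did 12.4% of all transcripts with PS above. Under the plain t statistic 0 of 10 passed in either tissue.

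**Figure D3:**
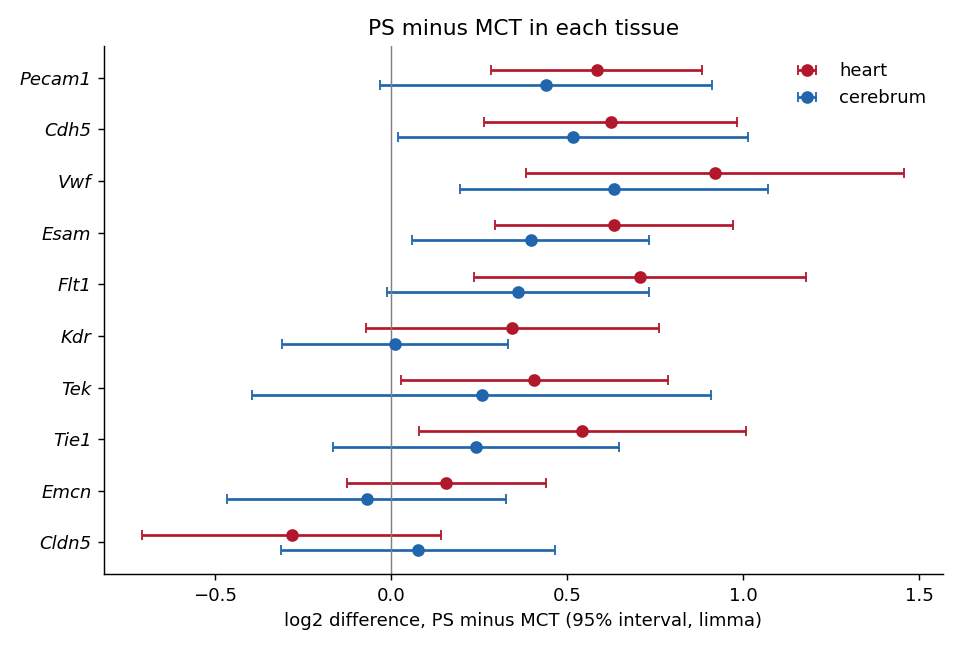
PS minus MCT in log2 units (horizontal axis) for the 10 endothelial genes in heart and in cerebrum, as limma estimates with 95% intervals of a single gene (n = 3 arrays a group). The estimates lie between -0.28 (Cldn5) and 0.92 (Vwf) in heart and between -0.07 (Emcn) and 0.63 (Vwf) in cerebrum.

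The calls in heart depended on 1 MCT heart and on the variance model. With all 6 hearts kept, 8 of 10 genes passed with array weights, where 54.9% of all transcripts were called. Cldn5, among those 8, passed as lower in PS hearts (-0.42). Fits with array weights stopped before they converged in several cases. With one fit over 12 arrays 4 of 10 passed (13.5% of all transcripts), and with the replicate block 1 did (0.691%). Without the third MCT heart, 7 of 10 genes passed in limma, with differences of 0.65 for Pecam1, 0.75 for Cdh5, 1.03 for Vwf, 0.76 for Esam, 0.94 for Flt1, 0.52 for Tek and 0.77 for Tie1, and 26.8% of all transcripts were called. Without any other single heart array 0 of 10 passed. In cerebrum, Vwf (0.78) and Esam (0.52) passed without the third PS array, where 12.2% of all transcripts were called, and 0 of 10 without any other. The median over the 10 genes stayed positive in each of these fits, at 0.43 to 0.70 in heart and 0.14 to 0.51 in cerebrum.

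The difference between PS and MCT was not shown to differ between heart and cerebrum for any of the 10 genes. The sexes compared were not the same in the 2 tissues. PS hearts had the female level of Xist and MCT hearts the male level, whereas the PS cerebra held both levels (9.55, 3.32 and 9.86). The part of sex in the interaction was not tested. For the interaction, PS minus MCT in heart less the same in cerebrum, 0 of 10 passed in limma and 0 of 10 had an unadjusted p under 0.05, whereas 1.52% of all transcripts passed and 19.2% were under 0.05 unadjusted. The estimates ran between -0.36 for Cldn5 (-0.93 to 0.21, adjusted p = 0.479) and 0.35 for Flt1 (-0.26 to 0.95, adjusted p = 0.520), with a median of 0.23 against 0.07 over all transcripts. For Vwf the difference of effects was 0.29 (-0.42 to 0.99, adjusted p = 0.660). For Kdr it was 0.33 (-0.19 to 0.85, adjusted p = 0.470). The highest upper bound among the 10 intervals, 0.99, belonged to Vwf.

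Deviations from array to array were shared by most of the 10 genes. Taking each gene's deviation from its mean over the MCT arrays of the same tissue, the median over the 10 genes was 0.48, 0.68 and 0.52 in PS hearts and -0.27, 0.02 and 0.23 in MCT hearts. In cerebrum it was 0.38, 0.64 and 0.01 in PS mice and -0.01, -0.20 and 0.225 in MCT mice. The second PS heart had the highest value of its group for 10 of 10 genes, and the third MCT heart for 9. In cerebrum, the second PS array was the highest of its group for 8 genes and the third PS array the lowest for 10. The third MCT cerebrum was the highest of its group for 10 genes. The largest single deviations belonged to Vwf, at 1.19 and 1.09 in the second PS heart and the third, and 0.92 in the first PS cerebrum.

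**Figure D4:**
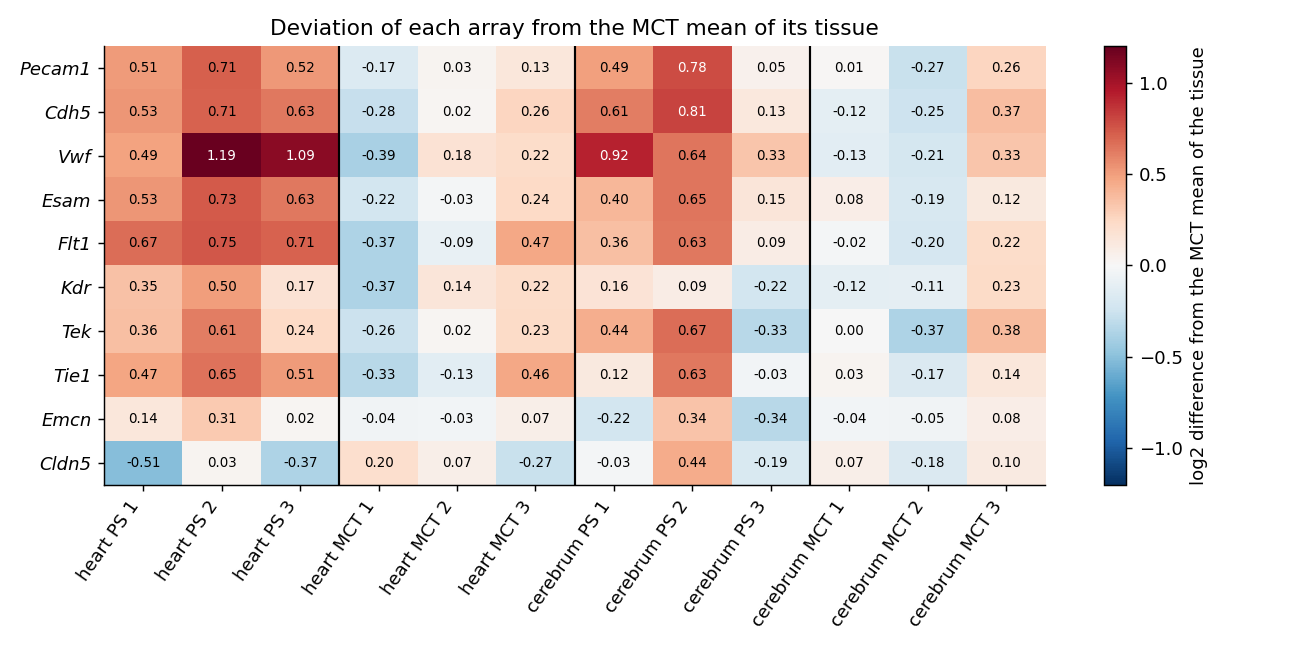
Deviation of each endothelial gene (rows) on each array (columns) from the gene's mean over the MCT arrays of that tissue, in log2 units, as colour and printed value, with heart left of cerebrum and PS left of MCT. The PS hearts are positive for 9 of the 10 genes on average, and the third PS cerebrum has a median of 0.01.

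After each gene was centred on the mean of each of the 4 groups, all 45 pairs of the 10 genes had a positive Pearson r over the 12 arrays, with a median of 0.747. The highest was between Pecam1 and Tek (0.984) and the lowest between Flt1 and Cldn5 (0.072). Against the mean of the other 9 genes, r was 0.968 for Pecam1, 0.958 for Cdh5, 0.952 for Tek, 0.946 for Esam, 0.859 for Flt1, 0.842 for Tie1, 0.788 for Kdr, 0.735 for Emcn, 0.678 for Vwf and 0.376 for Cldn5. These are descriptions over genes measured on the same 12 arrays, and no test was made of them.

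The transcripts most like the endothelial mean were sought among 12731 transcripts by Pearson r over the 12 arrays, each centred within its tissue. Outside the 10 genes, the nearest were Eng (0.971), Dennd5b (0.970), Ehd2 (0.965), Adgre5 (0.960), Urb1 (0.960), Cav1 (0.960), Asap1 (0.956) and Lrrc32 (0.956). Eng encodes endoglin, a co-receptor for transforming growth factor beta on endothelium, and Cav1 encodes caveolin-1, the coat protein of caveolae. Eng was 0.75 log2 units above MCT in PS hearts and 0.61 in PS cerebra, Lrrc32 0.98 and 0.55, and Cav1 0.42 and 0.25. Of the 10 genes themselves, which form part of that mean, Pecam1, Cdh5 and Esam ranked 1, 2 and 6, and Emcn and Cldn5 ranked 2348 and 6805. Because centring within a tissue leaves the difference between treatments in place, this likeness includes any treatment effect. Centred within groups, r of the 8 genes was 0.905 to 0.969.

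Ligands and co-receptors of the VEGF and angiopoietin pathways gave 1 call in each tissue. Pgf, the gene of placental growth factor, a ligand of VEGF receptor 1, was 7.29, 7.22 and 7.25 in PS hearts and 6.26, 6.43 and 6.53 in MCT hearts. It rose by 0.85 ± 0.12 log2 units (SE, adjusted p = 0.0337 in limma), the only one of 11 genes tested in heart to pass, where 0.157% of all transcripts were called higher. The call was lost under quantile normalization, with all transcript clusters tested, with the plain t statistic and without any one heart array other than the third MCT heart, 8 of 18 alternatives in all. Nrp2, the gene of neuropilin-2, a VEGF co-receptor that neurons make as well, was 5.45, 5.45 and 6.33 in PS cerebra and 6.69, 6.80 and 7.12 in MCT cerebra. It fell by 1.13 ± 0.24 (SE, adjusted p = 0.0443 in limma), the only one of 5 tested there, where 3.93% of all transcripts were called lower. Among the fits that leave out 1 array, the call of Nrp2 stood only without the third PS cerebrum. Over all alternatives it was lost in 10 of 16.

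The other pathway genes did not pass. In heart, Flt4, the gene of VEGF receptor 3 of lymphatic vessels, differed by 0.92 (adjusted p = 0.119 in limma), Angpt2 by 0.51 (adjusted p = 0.351), Ptprb, the phosphatase that acts on TIE2, by 0.40 (adjusted p = 0.213) and Vegfa by 0.26 (adjusted p = 0.458). Angpt1 differed by 0.18, Nrp2 by 0.26, Vegfd by 0.12, Nrp1 by 0.10, Vegfb by 0.01 and Vegfc by -0.04, with adjusted p-values between 0.332 and 0.966, and Angpt4 was below the filter. The median over the 11 genes was 0.26 against 0.06 over all transcripts. In cerebrum, Ptprb differed by 0.34 (adjusted p = 0.383 in limma), Nrp1 by 0.18, Vegfa by 0.14 and Vegfb by 0.08, and 7 of the 12 were below the filter. Of the 5 genes above the filter in each tissue, 4 were higher in heart, by 2.56 log2 units in PS mice and 2.64 in MCT mice for Nrp1, 2.02 and 1.96 for Ptprb, 1.79 and 1.86 for Vegfb and 1.62 and 1.51 for Vegfa, all past the threshold in limma. The fifth, Nrp2, was higher by 1.48 in PS mice (adjusted p = 0.00108 in limma) and by 0.09 in MCT mice (adjusted p = 0.571).

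Other genes found in endothelium throughout the body lay mostly on the same side as the 10 genes. In heart, 18 of 24 were positive with a median of 0.43, and 0 passed in limma (0.33% of all transcripts did). Of the 24, 14 did not overlap with PS above (17.2% of all transcripts). The nearest to the threshold were 2 endothelial transcription factors, Sox7 (0.79, adjusted p = 0.0806 in limma) and Sox17 (0.75, adjusted p = 0.0963). In cerebrum 17 of 19 were positive with a median of 0.30, and 2 rose (1.83% of all transcripts did). Sox18, a transcription factor of the same family, was 5.94, 6.21 and 5.91 in PS cerebra and 5.18, 5.07 and 5.15 in MCT cerebra, a difference of 0.89 ± 0.10 (SE, adjusted p = 0.0136 in limma). Ramp2, a subunit of the adrenomedullin receptor, was 6.87, 7.20 and 6.87 in PS cerebra and 6.01, 6.25 and 6.48 in MCT cerebra, a difference of 0.73 ± 0.14 (SE, adjusted p = 0.0383 in limma). A dimmer second transcript cluster of Ramp2 differed by 0.16 and was below the filter. Neither call held without the first or the second MCT cerebrum or without the first PS cerebrum, and that of Ramp2 was also lost without the second PS cerebrum. Neither held with the plain t statistic. Over all alternatives, the call of Sox18 was lost in 5 of 16 and that of Ramp2 in 8 of 16.

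Of 15 blood-brain barrier genes tested in cerebrum, 1 was called higher and 1 lower, where 1.83% and 3.93% of all transcripts were. Slc2a1, the glucose transporter GLUT1, was 10.63, 10.53 and 10.57 in PS cerebra and 9.93, 9.92 and 10.11 in MCT cerebra. It rose by 0.59 ± 0.08 log2 units (SE, adjusted p = 0.0239 in limma). Slc16a1, the monocarboxylate transporter MCT1, was 7.84, 7.52 and 7.63 in PS cerebra and 8.55, 8.25 and 8.22 in MCT cerebra, and it fell by 0.68 ± 0.12 (SE, adjusted p = 0.0349 in limma). Of the 15 genes tested, 10 were positive (45% of all transcripts), and the median was 0.20 against -0.03 over all transcripts. In heart, 9 were tested and 0 passed (0.33% of all transcripts did), with Slc2a1 at 0.65 (adjusted p = 0.137 in limma) and the amino acid transporter Slc7a5 at 0.53 (adjusted p = 0.134). The calls of Slc2a1 and Slc16a1 were lost without the first or second MCT cerebrum or the first PS cerebrum, and that of Slc16a1 also without the second PS cerebrum. Both were lost with the plain t statistic. Over all alternatives, the call of Slc2a1 was lost in 6 of 17 and that of Slc16a1 in 7 of 17.

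Between the tissues, most barrier genes were lower in heart. In PS mice 11 of 13 tested were negative, with a median of -1.60 log2 units, 9 called lower and 2 called higher. In MCT mice 10 of 13 were negative, with a median of -1.69, 10 called lower and 2 called higher. Of all transcripts, 75.9% were called in either direction in PS mice and 75.5% in MCT mice. The barrier genes that were above the filter within heart as well did not go one way. Slc2a1 had -1.63 log2 units for heart minus cerebrum in PS mice and -1.69 in MCT mice. The drug efflux transporter gene Abcg2 had 1.10 in PS mice and 1.25 in MCT mice, and Slc16a1 had 2.94 and 2.00, all past the threshold in limma. Mfsd2a, a lipid transporter of barrier endothelium, averaged 9.05 in PS cerebra and 8.43 in MCT cerebra, a treatment difference that was not called. It was below the filter in heart. For genes known for heart endothelium, PS against MCT gave 0 calls among the 11 tested in heart (0.33% of all transcripts), with a median of 0.17. In cerebrum it gave 0 calls among the 4 tested (5.76% of all transcripts), with a median of 0.25. In heart 8 of the 11 were positive (57.7% of all transcripts) and 3 negative, the lowest at -0.73. Without overlap, 5 had PS above (17.2% of all transcripts) and 2 had PS below. Aqp1, a water channel of heart capillaries, was 0.63 above MCT in PS hearts (adjusted p = 0.118 in limma), and Car4, a carbonic anhydrase on capillaries, 0.79 in PS cerebra (adjusted p = 0.148). The SD of Car4 was 0.70 in PS cerebra and 0.18 in MCT cerebra.

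Genes of leukocyte adhesion and endothelial activation had 0 calls for PS in either tissue, with medians of 0.01 in heart (7 tested) and 0.04 in cerebrum (6 tested). Of all transcripts, 0.33% were called in heart and 5.76% in cerebrum, so 0 calls among so few genes sets them apart in neither. Vcam1 was at 0.49 in heart (adjusted p = 0.197 in limma) and Pvr at 0.61 in heart (adjusted p = 0.133) and 0.42 in cerebrum (adjusted p = 0.0575). Genes of lymphatic endothelium, 6 of them tested in heart, had a median of 0.805 there, with 5 positive, 0 called and 4 without overlap and PS above (17.2% of all transcripts). Lyve1, a hyaluronan receptor that macrophages also make, was 8.61, 9.23 and 9.09 in PS hearts and 7.56, 8.06 and 7.50 in MCT hearts (difference 1.27, adjusted p = 0.0757 in limma). In cerebrum the lymphatic median was 0.02 over 4 genes.

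**Figure D5:**
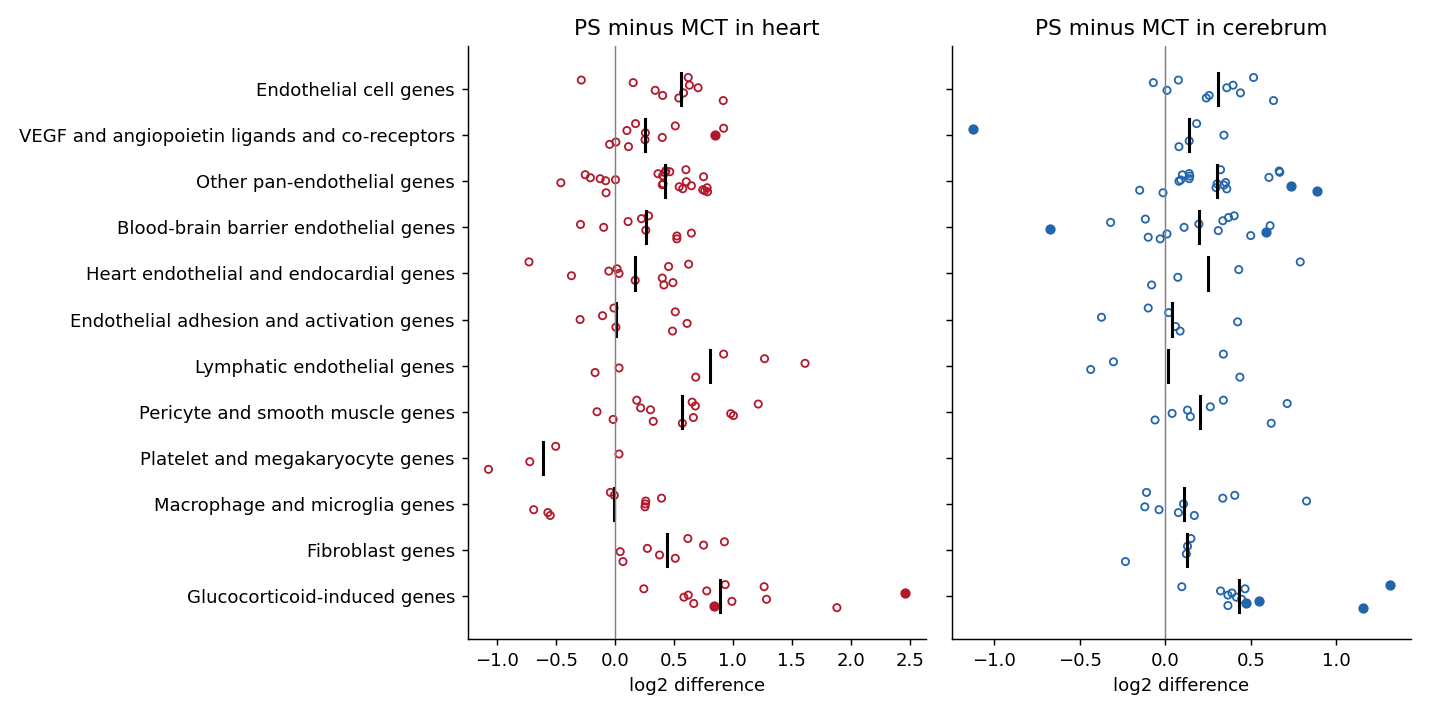
PS minus MCT in log2 units (horizontal axis) of every tested gene of the endothelial genes and of other gene lists (rows), with heart left of cerebrum. Filled points passed the threshold in limma, open points did not, and black bars are medians. The endothelial genes have a median of 0.56 in heart and 0.31 in cerebrum, with 0 filled points in either.

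For genes of other cell types, 0 of the pericyte, fibroblast, platelet, macrophage and cardiomyocyte lists were called for PS in limma in either tissue (platelet genes were below the filter in cerebrum). Of all transcripts, 0.33% were called in heart and 5.76% in cerebrum. The levels of these lists are given beside the endothelial genes. Genes of pericytes and vascular smooth muscle, which surround the endothelium, had list means of 8.25 to 8.53 in PS hearts and 7.63 to 8.09 in MCT hearts, and in cerebrum 5.89 to 6.32 in PS mice and 5.69 to 6.09 in MCT mice. In heart, 11 of 13 were positive with a median of 0.57, 9 without overlap and PS above (17.2% of all transcripts) and 0 called, and Notch3, a receptor of mural cells, was at 1.01 (adjusted p = 0.0951 in limma). In cerebrum 7 of 8 were positive, with a median of 0.205 and 0 called. Fibroblast genes were at 8.91 in the second PS heart, 7.65 and 7.77 in the others and 7.41 to 7.82 in MCT hearts. In heart, 8 of 8 fibroblast genes were positive (57.7% of all transcripts), with a median of 0.45. Of these, 3 were without overlap and PS above (17.2% of all transcripts), and 0 were called. Platelet genes, of which 3 of 4 were negative in heart, had list means of 5.45 to 5.71 in PS hearts and 5.80 to 6.15 in MCT hearts. Macrophage genes overlapped, at 6.81 to 7.39 in PS hearts and 6.87 to 7.31 in MCT hearts, and so did cardiomyocyte genes, at 12.16 to 12.25 in PS hearts and 12.07 to 12.28 in MCT hearts. The part of these cell types in the endothelial values was not tested.

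Genes of the atrium, the striatum, the sex chromosomes and the glucocorticoid response differed between arrays or treatments as well. Myl7, an atrial myosin gene, was 4.16, 4.17 and 6.80 in PS hearts and 4.37, 5.08 and 8.53 in MCT hearts, and the third heart of each group was therefore left out together in 1 fit. Then Pecam1, Cdh5, Esam, Flt1 and Tie1 passed, with 9.23% of all transcripts called. Striatal genes, which mark a region beneath the cortex, had list means of 6.75, 6.85 and 8.76 in PS cerebra and 9.43 to 9.60 in MCT cerebra, and the third PS cerebrum, nearest to the MCT arrays by that measure, had the lowest value of its group for all 10 endothelial genes. Xist, the RNA that coats the silenced X chromosome in females, was 9.09, 9.13 and 8.92 in PS hearts and 3.40, 4.03 and 3.66 in MCT hearts, so that sex and treatment cannot be told apart in heart. In cerebrum Xist was 9.55, 3.32 and 9.86 in PS mice and 3.77, 3.34 and 3.62 in MCT mice, so sex largely follows treatment there too. The second PS cerebrum, with the low Xist of the MCT arrays, had the highest endothelial median of all cerebra, 0.64 above the MCT mean. Glucocorticoid-induced genes had list means of 9.39 to 9.57 in PS hearts and 8.20 to 8.61 in MCT hearts, with all 12 positive and 2 called, where 0.33% of all transcripts were (Fkbp5 at 2.46, adjusted p = 0.00137 in limma, and Tsc22d3 at 0.84, adjusted p = 0.0337). In cerebrum their list means were 9.02 to 9.16 in PS mice and 8.50 to 8.61 in MCT mice, with 4 of 12 called (5.76% of all transcripts). The part of these differences in the endothelial values was not tested.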

How the data were processed

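Per the labels' protocols, heart and cerebrum RNA was purified with the RNeasy Plus mini kit, and an Affymetrix whole-transcript labelling kit added biotin. The authors deposited 1 value per transcript cluster and array, 35556 clusters on 12 arrays, and used Expression Console by Affymetrix for it, per the submitters' processing notes. No version, background method or genome build is given in the sources used here. Deposited values were read as log2 intensity, since they ran between 1.9 and 13.11, above the natural log of a 16-bit maximum (11.1). Array medians of 4.89 to 5 are near each other, and a shift of all transcripts would be hidden by such scaling. The values were used as they stood. A cluster averages probes over a gene and can hide differences between isoforms. The number of arrays limits the precision.

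The supplied platform annotation covered 23099 clusters, of which 21218 had 1 symbol, 1881 had several and 12457 of all clusters had no entry. Only clusters with 1 symbol entered the comparisons, and the brightest stood for a gene. Groups came from the labels. Comparisons used lmFit and eBayes of limma 3.58.1, under R 4.3.3, within 2 groups, or over all 4 for the interaction, on transcripts whose mean over the arrays in the fit reached the 40th percentile. Benjamini-Hochberg adjustment ran over all of them, with a threshold of 0.05. The fits were tested on simulated data.

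The 10 genes and all gene lists were chosen with earlier results of these data known. Named were the 10 genes, every measured gene of the VEGF and angiopoietin list, up to 4 called genes of each other list and tissue, or else up to 2 with the lowest p as values, and the 8 transcripts most like the endothelial mean (gene models, RIKEN clones and small RNAs left out). Chosen after their values were seen were the genes named between tissues, Xist, Myl7, and the examples Eng, Cav1 and Lrrc32 among the 8. Some listed genes stand in 2 lists (Ptprb and Flt4).

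Arrays of equal number were checked for pairing by the correlation of their deviations from group means. Between heart and cerebrum of MCT mice every pair was above 0.1 (0.102 to 0.287), which meets the rule set for pairing, although the labels do not state what the numbers mark. All values printed as results come from fits without the replicate block, which was run as an alternative. The correlations were 0.054 to 0.115 between the tissues of PS mice, 0.032 to 0.122 between treatments in heart and -0.263 to 0.113 in cerebrum, which did not meet that rule. Alternatives covered scaling, filters, the transcripts tested, the variance model, array weights, a replicate block, 1 fit over all arrays and leaving out each array in turn.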

Additional observations from a re-analysis of the deposited data

Results flagged for a closer look

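None of the 10 endothelial genes was flagged, and with 3 arrays a group no array was tested as an outlier. Among the genes of the vessel and glucocorticoid lists named above, 5 passed the test of the difference between the PS effect in heart and that in cerebrum in limma (1.52% of all transcripts passed). Outside the VEGF and angiopoietin list, genes were named for a low p for PS in heart or cerebrum. That choice used the same values, so the share over all transcripts is no yardstick for the 5. Fkbp5, a cochaperone gene induced by glucocorticoids, differed by 2.07 log2 units (2.46 in heart and 0.39 in cerebrum, adjusted p = 0.0191 in limma). Its arrays were 7.38, 6.37 and 7.51 in PS cerebra and 6.55, 6.83 and 6.71 in MCT cerebra. The 6.37 belonged to the second PS cerebrum, which had the male level of Xist (3.32), and lay below every MCT cerebrum. Sex and treatment cannot be told apart in heart, a limit on every heart value given here. No MCT cerebrum had the female level of Xist, so sex limits the PS differences and calls in cerebrum as well. Nrp2 differed by 1.39 (0.26 in heart and -1.13 in cerebrum, adjusted p = 0.0487 in limma). Notch3 differed by 0.97 (1.01 in heart and 0.04 in cerebrum, adjusted p = 0.0487 in limma). Slc16a1 differed by 0.94 (0.26 in heart and -0.68 in cerebrum, adjusted p = 0.0214 in limma). Pgf differed by 0.89 (0.85 in heart and -0.04 in cerebrum, adjusted p = 0.0300 in limma), but its cerebrum means, 4.61 in PS mice and 4.65 in MCT mice, were below the filter of 5.04 there, so this value restates the heart difference. Gp9, a platelet glycoprotein gene, was below the filter over 12 arrays: its PS arrays all lay below the MCT arrays in heart (-0.50) and all above them in cerebrum (0.20), an untested difference of -0.70. With the replicate block, the calls of Notch3 (adjusted p = 0.0615 in limma) and Pgf (adjusted p = 0.0511) were lost. All 5 tested calls were lost without the first or without the second MCT cerebrum. Over all alternatives the call of Fkbp5 was kept in 19 of 22, Slc16a1 in 18 of 22, Pgf in 10 of 21, Nrp2 in 7 of 22 and Notch3 in 4 of 21.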

How the results depend on the processing

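Leaving out single arrays and the choice of variance model moved the calls for PS, and neither moved the tissue calls by more than 1 gene. In heart, 42 transcripts were called as reported, 17 with all transcript clusters tested, 3 with the plain t statistic, 6987 with array weights, 1722 with one fit over 12 arrays, 1176 without the PS and MCT hearts numbered 3, and 4 to 3416 when each array was left out. Of the 10 endothelial genes, 0 passed as reported, 8 with array weights, 4 with one fit over 12 arrays (Pecam1, Vwf, Esam and Flt1), 5 without the PS and MCT hearts numbered 3, and 0 to 7 when each array was left out, with 7 without the third MCT heart. Under array weights, Cldn5 passed as lower in PS hearts (-0.42). In cerebrum, 734 transcripts were called as reported, 189 with all transcript clusters, 6 with the plain t statistic, 3407 with array weights, 371 with one fit over 12 arrays, and 0 to 1557 when each array was left out. There, 3 endothelial genes passed with array weights (Cdh5, Vwf and Flt1) and 0 to 2 when each array was left out. The fit of array weights stopped before it converged in several cases. For the interaction, 194 were called as reported, 294 with arrays centred on their medians, 96 with the plain t statistic, and 3 to 1629 when each array was left out; 0 endothelial genes passed in each. Between heart and cerebrum, 9 endothelial genes passed in every alternative in PS mice. In MCT mice 9 passed, except 7 with a filter at the 60th percentile, where Vwf and Tie1 were not tested and 6396 transcripts were called (9610 as reported), and 10 with array weights and without the third MCT heart, where Cldn5 was added.

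With the replicate number as a block, heart gave 88 calls with 1 endothelial gene (Vwf, adjusted p = 0.0369 in limma), cerebrum 0 calls with 0, the tissues 9596 in PS mice and 9709 in MCT mice with 9 each, and the interaction 143 with 0. All 3 PS hearts correlated best with the MCT heart of their own number, a hint from the data only, as did 1 of 3 in cerebrum. Between heart and cerebrum, 3 of 3 hearts matched their own number best in PS mice and 2 of 3 in MCT mice. Heart and cerebrum of PS mice numbered 2 differ in sex by Xist and cannot be 1 mouse, so a best match with the own number does not show pairing. The block changed no other call of the 10 genes. It ended the cerebrum calls of Sox18, Ramp2, Slc2a1, Slc16a1 and Nrp2, along with every other call for PS in cerebrum (0 of 12733 transcripts). Within a tissue, PS and MCT arrays come from different mice, so the block there pairs no mouse with itself.

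Differences near 0 changed sign. In heart, Nrp1 was -0.0123 and Vegfd -0.171 with array weights, and Vegfc was 0.09 without the PS and MCT hearts numbered 3. Leaving out each array, Vegfd ran between -0.387 and 0.368 (also -0.0117), Vegfc between -0.208 and 0.102 (also 0.005) and Vegfb between -0.0433 and 0.0717 (also -0.0267). In cerebrum, Kdr was -0.0057 with quantile normalization and -0.02 with arrays centred on their medians, and Cldn5 was -0.0019 with array weights. Leaving out each cerebrum, Kdr ran between -0.065 and 0.125 (also -0.03, -0.05 and -0.045), Cldn5 between -0.107 and 0.208 (also -0.0117), Emcn between -0.277 and 0.0633 (also 0.0033) and Vegfb between -0.0033 and 0.152. In the interaction, leaving out each array, Pecam1 ran between -0.0517 and 0.313, Cdh5 between -0.0867 and 0.253 (also -0.0333 and -0.0783) and Tek between -0.145 and 0.355 (also -0.0383), each lowest without the third PS cerebrum. The cause was not tested. The alternative of another transcript cluster did not apply to the 10 genes, which have 1 each.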
